A study of Homo sapiens with 72 samples.

Results

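The inhibitor of the kinase ATR moved 10 genes strongly at 20 h in UV-irradiated human HEK293 Flp-In T-REx cells: RASSF1, RASSF5, VANGL2, DHRS2, METTL7A, OVGP1, BTN3A2, B4GAT1, HPS6 and C11orf96. They were chosen from their own values in these libraries, for the large difference between inhibitor and vehicle at 20 h. They are 10 of the 19324 genes of the deposited count table. All 10 passed the filter on low counts, and the lowest count of any of them in any library was 62, for METTL7A in STK19_KO2 with ATRi at 20 h. Because the 20 h contrast of inhibitor and vehicle picked these genes, their values in it are given as a description, with no test. The same holds for the changes from 0 h to 20 h, which share libraries with that contrast. Tests are given for UV at 3 h and 4 h, for the inhibitor at 4 h and for the lines at 0 h.

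The libraries hold polyadenylated RNA from 4 lines derived from HEK293 Flp-In T-REx, cells of human embryonic kidney origin with a recombination site for transgenes and the tetracycline repressor. The edited lines were CSB_KO (1 clone), STK19_KO1 and STK19_KO2 (2 clones of 1 knockout), and WT was the unedited line. With 6 conditions per line, the 72 libraries form 24 groups of 3. The origin of replicates, from separate cultures or not, is not in the labels, so p-values cover the spread between these samples only, which may be technical. The UV dose was not used here. The conditions were no treatment (0 h), 3 h after UV, 4 h and 20 h with ATRi (VE-821, 3 µM, dissolved in DMSO) after UV, and 4 h and 20 h with DMSO alone after UV. The series' design has the inhibitor added 3 h after irradiation and counts hours from UV, while the sample descriptions count them from the inhibitor. All groups but 0 h were therefore irradiated, and a group with inhibitor but without UV was not analysed here. In extracts of a whole culture, fewer cells of a type and less RNA per cell cannot be told apart.

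UV light leaves bulky lesions in DNA that stop RNA polymerase II in the transcribed strand of genes. CSB, the product of ERCC6, binds the stopped polymerase and starts transcription-coupled repair, and STK19 takes part in the same repair pathway. ATR is the kinase that answers stretches of single-stranded DNA at stalled replication forks and at repair gaps, and VE-821 blocks its active site. RASSF1 and RASSF5 are scaffold proteins with a Ras association domain that bind the MST kinases of the Hippo pathway. VANGL2 is a membrane protein of the planar cell polarity pathway. DHRS2 is a short-chain dehydrogenase/reductase, and METTL7A, now also called TMT1A, is a thiol methyltransferase. OVGP1 is a secreted glycoprotein of the oviduct from a chitinase-like family. BTN3A2 is a butyrophilin, a family of surface proteins that gamma-delta T cells read. B4GAT1 is a Golgi glucuronyltransferase that primes the sugar chain of alpha-dystroglycan, and HPS6 is a subunit of BLOC-2, a complex that sorts cargo to lysosome-related organelles. No well established function can be given for C11orf96.

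Library totals ran from 36.5 to 212.9 M counts with a median of 56.3 M. ERCC6 averaged 6.97 ± 0.61 CPM in CSB_KO and 23.5 ± 0.47 CPM in WT at 0 h (SD, n = 3 each), while STK19 did not pass the test as lower in either STK19 clone. Of 8 genes typical of HEK293 cells, 7 averaged over 1 CPM. Of the marker genes of other cell types, CD14 of blood, COL1A1 of fibroblasts, SFN of squamous epithelium and AQP1 and LRP2 of kidney tubule did so too. The summed level of the 6 blood markers ranged from 2.41 to 33.9 CPM in the 20 h ATRi libraries and from 1.79 to 23.2 CPM in the 20 h DMSO libraries. That of the 6 fibroblast markers ranged from 6.62 to 12.7 CPM with ATRi and from 10.8 to 18.5 CPM with DMSO at 20 h, that of the 6 squamous markers from 0.85 to 2.28 and from 1.53 to 3.35 CPM, and that of the kidney tubule markers from 2.76 to 13.3 and from 7.33 to 13.7 CPM, in the same order of arms. Their part in the results was not tested. Mitochondrial transcripts took 5.11 ± 0.45% of the counts in CSB_KO with ATRi at 20 h and 3.93 ± 0.45% with DMSO, against 2.31 ± 0.44% and 2.35 ± 0.37% in WT (SD, n = 3 each). The part of that share in the results was not tested either. In 5 libraries the counts lay apart from both other libraries of the group: in WT replicate 1 of the 0 h, the 3 h and the 4 h DMSO group, and in STK19_KO1 replicate 3 at 3 h and replicate 1 at 4 h with ATRi. Where leaving out these 5 libraries changed a call of the 10 genes, the value without them is given.

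The promoters of a raised pair and of 1 lowered gene are shown because their base composition differs within the raised genes. They are the RefSeq windows of GRCh38.p14, from 250 bases before to 50 bases after the annotated start, read 5′ to 3′ on the gene's strand. For RASSF1 and METTL7A this start lies inside the gene span of the count table given below. Capitals mark matches, on either strand, to the TATA box (letters TATAAA), the CCAAT box, the GC box (letters GGGCGG), the CRE (letters TGACGTCA) or the AP-1 motif (letters TGANTCA); a GC box on the other strand reads CCGCCC, and a CCAAT box reads ATTGG.
RASSF1 (raised), chr3:50337401-50337700, minus strand: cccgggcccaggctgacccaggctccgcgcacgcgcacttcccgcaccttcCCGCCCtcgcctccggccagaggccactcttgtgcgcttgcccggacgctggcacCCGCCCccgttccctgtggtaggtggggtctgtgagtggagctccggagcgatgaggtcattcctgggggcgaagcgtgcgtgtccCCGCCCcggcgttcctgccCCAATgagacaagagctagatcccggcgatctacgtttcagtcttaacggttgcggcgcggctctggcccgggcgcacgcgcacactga
DHRS2 (raised), chr14:23629865-23630164, plus strand: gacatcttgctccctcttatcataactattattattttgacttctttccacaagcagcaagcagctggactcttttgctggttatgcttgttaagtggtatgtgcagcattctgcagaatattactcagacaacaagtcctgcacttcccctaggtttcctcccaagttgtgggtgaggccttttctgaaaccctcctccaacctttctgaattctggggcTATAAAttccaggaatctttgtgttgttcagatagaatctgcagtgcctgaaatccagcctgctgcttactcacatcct
METTL7A (lowered, listed as TMT1A), chr12:50924765-50925064, plus strand: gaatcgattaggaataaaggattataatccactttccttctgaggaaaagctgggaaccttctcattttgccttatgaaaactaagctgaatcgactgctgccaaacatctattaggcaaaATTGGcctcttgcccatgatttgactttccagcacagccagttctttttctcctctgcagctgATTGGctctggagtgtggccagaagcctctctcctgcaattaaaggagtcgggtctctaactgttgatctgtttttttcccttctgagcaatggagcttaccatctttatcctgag

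The RASSF1 window was 69.7% G or C and held 3 GC boxes and 1 CCAAT box. The DHRS2 window was 44.0% G or C with 1 TATA box that begins 29 bases before the start, and the METTL7A window was 43.7% G or C with 2 CCAAT boxes. Over all 35116 windows of the table the median was 58.7% G or C, and 45.0% held a GC box, 34.6% a CCAAT box, 11.5% a TATA box, 7.71% an AP-1 match and 1.85% a CRE match. Of the 10 genes, 7 had an entry in the table, and results are given for 6 of them. Other windows were 68.3% and 62.0% G or C for the 2 starts of RASSF5, 73.3% for VANGL2, and 37.0% and 41.3% for the 2 starts of BTN3A2. In that order, RASSF5 held 4 GC boxes at the first start, and 1 GC box and 1 AP-1 match at the other. VANGL2 held 3 GC boxes. BTN3A2 held 1 TATA box that begins 219 bases before the first start, with 1 CCAAT box and 1 AP-1 match. Its other window held no match. A match is a description of letters and not a site in use.

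The genes were not a complete top list. Genes that had a symbol, averaged a log2 CPM of 3 or more and were called in the same direction in all 4 lines were ordered by the mean log2 change over the lines, and RASSF1 was number 1 and C11orf96 number 5 of 1074 higher genes. In the same order METTL7A, BTN3A2, HPS6, VANGL2, B4GAT1 and RASSF5 were numbers 1, 2, 4, 5, 6 and 7 of 1109 lower genes. DHRS2 and OVGP1 lay below the level limit, at a mean log2 CPM of 2.75 and 2.82. The last of the 10 genes in the 2 orders were C11orf96, with a mean log2 change of 1.61, and RASSF5, with -1.49. Next came DUSP8 with 1.56, ZNF420 with 1.44, HOXA13 with -1.47 and HSPA1B with -1.45. Without the level limit, DHRS2, RASSF1, OVGP1 and C11orf96 were numbers 10, 13, 16 and 25 of 1256 higher genes. METTL7A, BTN3A2, HPS6, VANGL2, B4GAT1 and RASSF5 were then numbers 11, 17, 30, 32, 37 and 40 of 1354 lower genes. With ATRi at 20 h, all 10 genes lay outside the range of the DMSO libraries in every line, 4 of them higher and 6 lower. Non-overlap was found for 44.9% of all tested genes in CSB_KO, 69.2% in STK19_KO1, 69.4% in STK19_KO2 and 69.8% in WT. By edgeR's test, 31.5% in CSB_KO, 61.5% in STK19_KO1, 58.2% in STK19_KO2 and 63.9% in WT of all genes were called in this contrast. Nothing is read from these shares, since the contrast chose the genes. The standard errors of the 20 h log2 changes of the 10 genes lay between 0.07 and 0.13.

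**Figure D1:**
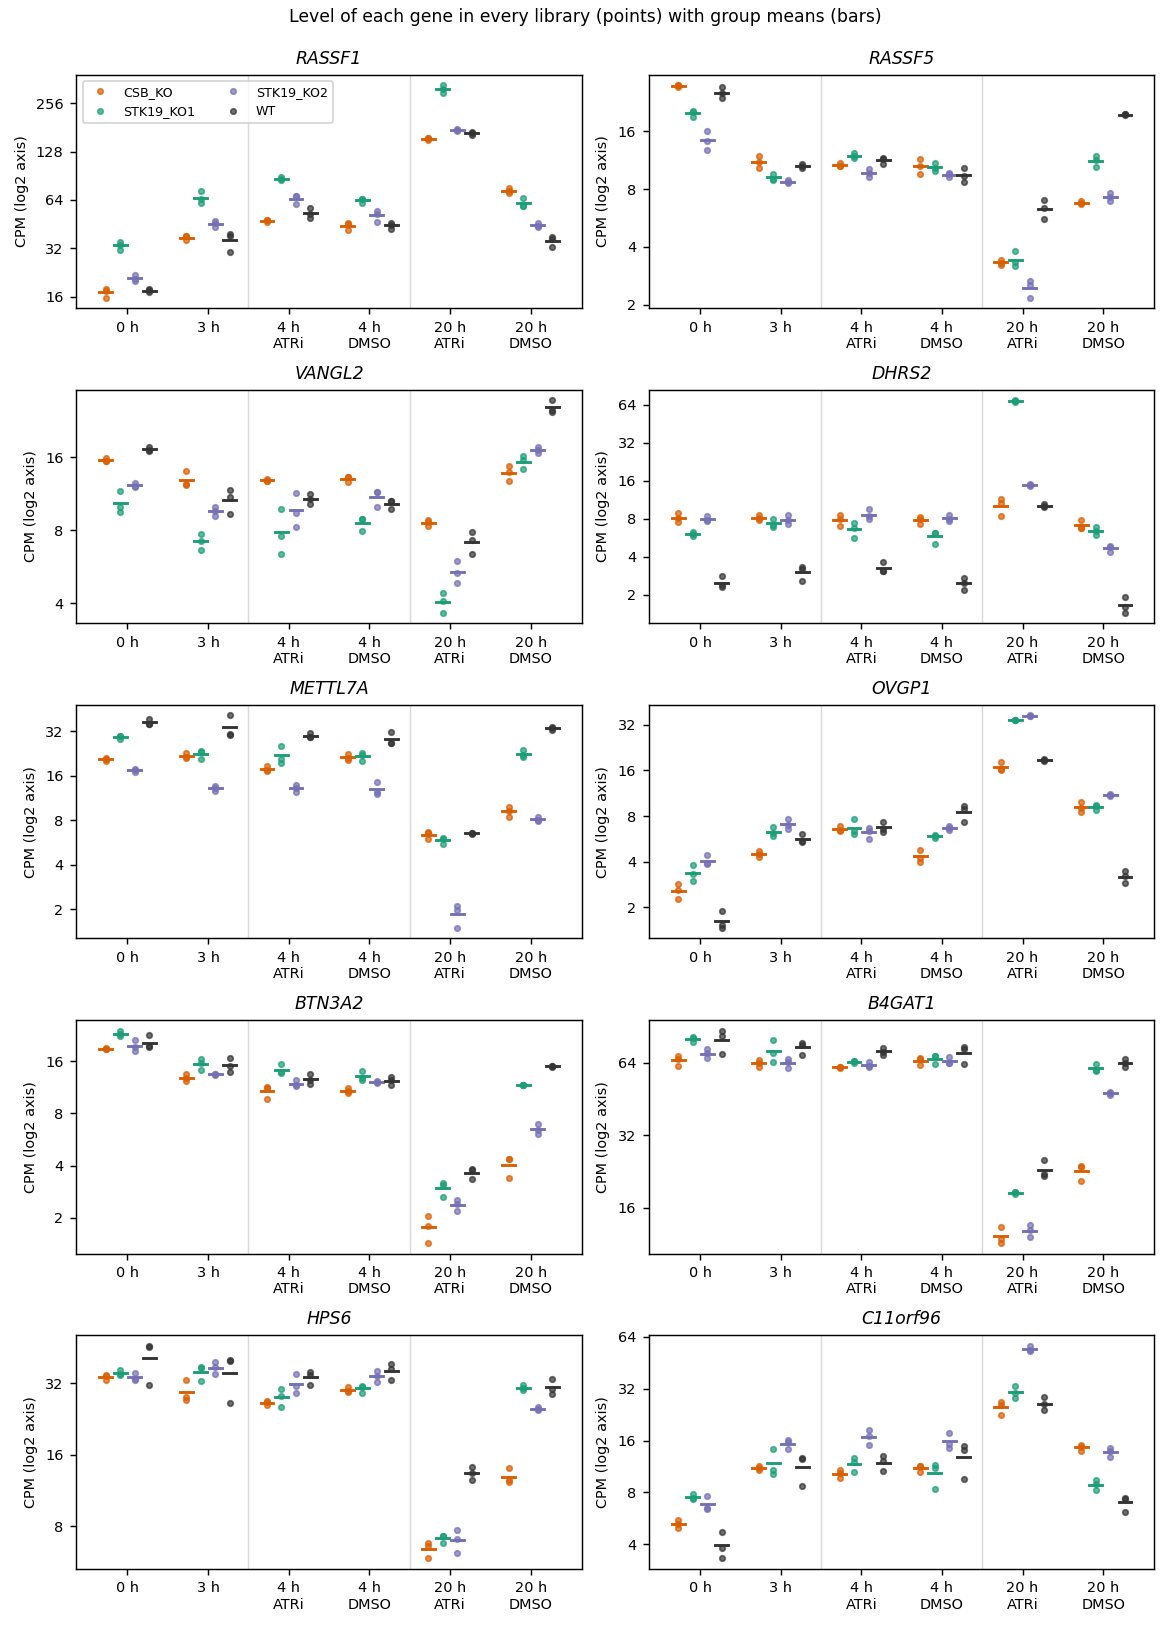
Levels of the 10 genes in all 72 libraries, in counts per M counts (CPM, log2 axis), for 0 h, 3 h, and 4 h and 20 h with ATRi or DMSO; points are libraries, bars are group means, and colours are lines. RASSF1 in the 20 h ATRi libraries of WT stood at 162 to 169 CPM, above the 32.8 to 37.6 CPM of the 20 h DMSO libraries, and B4GAT1 stood at 21.7 to 25.2 CPM, below 61.7 to 66.6 CPM.

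RASSF1 (ENSG00000068028, GRCh38 chr3:50329782-50340980, minus strand) was read at high depth, with 794 to 61400 counts per library. At 20 h its level in WT was 169, 162 and 166 CPM with ATRi, against 36.7, 37.6 and 32.8 CPM with DMSO; CPM here are counts per M counts of the library total after TMM scaling, edgeR's trimmed mean method. In CSB_KO it was 152, 155 and 155 CPM with ATRi, against 75.4, 72.3 and 70.6 CPM with DMSO. The ATRi libraries of CSB_KO lay just below those of WT, while the DMSO libraries of CSB_KO lay far above those of WT. The log2 change of ATRi over DMSO was 1.08 in CSB_KO, 2.36 in STK19_KO1, 1.98 in STK19_KO2 and 2.22 in WT. Measured from 0 h instead, the log2 change with ATRi was 3.17 in CSB_KO, 3.23 in STK19_KO1, 3.07 in STK19_KO2 and 3.24 in WT, a span of 0.18 over the lines. With DMSO it was 2.09 in CSB_KO, 0.87 in STK19_KO1, 1.09 in STK19_KO2 and 1.02 in WT, a span of 1.22. The 20 h ATRi level of RASSF1 was highest in STK19_KO1, at 297, 331 and 312 CPM, which also had the highest level at 0 h, at 31.3, 33.8 and 35.2 CPM. The antisense gene RASSF1-AS1 overlaps it in GENCODE 29 and is not used here. The libraries came from a directional kit, but whether the counting used strand is not stated.

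RASSF5 (ENSG00000266094, GRCh38 chr1:206507531-206589448, plus strand), which binds active Ras and Rap1 as well as MST kinases, went the other way from RASSF1. In WT at 20 h it stood at 6.39, 5.61 and 7.01 CPM with ATRi, against 19.7, 19.4 and 19.6 CPM with DMSO. In CSB_KO it stood at 3.31, 3.23 and 3.42 CPM with ATRi, against 6.77, 6.70 and 6.90 CPM with DMSO. The DMSO libraries of CSB_KO thus overlapped the range of the ATRi libraries of WT. ATRi over DMSO gave a log2 change of -1.04 in CSB_KO, -1.72 in STK19_KO1, -1.57 in STK19_KO2 and -1.63 in WT. From 0 h to 20 h with ATRi the log2 change was -3.06 in CSB_KO, -2.54 in STK19_KO1, -2.56 in STK19_KO2 and -2.01 in WT. The lowest group mean of RASSF5 was 2.45 ± 0.247 CPM in STK19_KO2 with ATRi at 20 h and the highest 27.6 ± 0.353 CPM in CSB_KO at 0 h (SD, n = 3 each). EIF2D overlaps RASSF5 in the annotation, so reads in the shared stretch can be assigned to either.

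VANGL2 (ENSG00000162738, GRCh38 chr1:160400564-160428670, plus strand) stood apart from the other genes that were lower with ATRi at 20 h. With DMSO alone it was above its 0 h level at 20 h in 3 lines, while the others were below theirs in every line. In WT it was at 17.6, 17.0 and 17.2 CPM at 0 h, at 9.34, 11.7 and 11.03 CPM at 3 h, at 9.78, 10.6 and 10.6 CPM at 4 h with DMSO and at 25.1, 24.7 and 27.5 CPM at 20 h with DMSO. With ATRi at 20 h it was at 6.41, 7.85 and 7.27 CPM in WT, below all libraries of every other WT condition. The log2 change of ATRi over DMSO at 20 h was -0.69 in CSB_KO, -1.92 in STK19_KO1, -1.69 in STK19_KO2 and -1.84 in WT. The 20 h DMSO change from 0 h was -0.17 in CSB_KO, 0.58 in STK19_KO1, 0.48 in STK19_KO2 and 0.58 in WT. STK19_KO1 with ATRi held the lowest group mean, 4.06 ± 0.370 CPM, and WT with DMSO at 20 h the highest, 25.8 ± 1.52 CPM (SD, n = 3 each).

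DHRS2 (ENSG00000100867, GRCh38 chr14:23630115-23645639, plus strand) varied most among lines. In STK19_KO1 at 20 h it was at 66.9, 68.3 and 69.5 CPM with ATRi, against 6.38, 5.96 and 6.88 CPM with DMSO, the largest fold of any of the 10 genes in any line. In WT it was at 10.4, 9.88 and 10.1 CPM with ATRi, against 1.45, 1.93 and 1.62 CPM with DMSO. In CSB_KO it was at 11.5, 10.6 and 8.36 CPM with ATRi, against 6.77, 6.73 and 7.83 CPM with DMSO, the smallest fold of the 10 genes in any line. The log2 change of ATRi over DMSO was 0.51 in CSB_KO, 3.41 in STK19_KO1, 1.67 in STK19_KO2 and 2.60 in WT, a span of 2.90. In WT, DHRS2 with ATRi lay above its own 0 h level, with a log2 change of 2.02 ± 0.11 (SE), while the DMSO libraries lay below it, with -0.58 ± 0.13 (SE). At 0 h the gene was at 2.299, 2.81 and 2.397 CPM in WT, the lowest line, and its lowest count in any library was 67.

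METTL7A (ENSG00000185432, GRCh38 chr12:50923472-50932510, plus strand) had the lowest mean log2 change of the 10 genes over the lines. In STK19_KO2 at 20 h it was at 1.498, 2.09 and 1.96 CPM with ATRi, against 7.99, 8.46 and 7.90 CPM with DMSO. In WT it was at 6.52, 6.49 and 6.56 CPM with ATRi, against 32.7, 34.4 and 33.7 CPM with DMSO. CSB_KO libraries came closest to each other, at 6.63, 6.58 and 5.99 CPM with ATRi, against 8.44, 9.84 and 9.29 CPM with DMSO, still without overlap. ATRi over DMSO gave a log2 change of -0.53 in CSB_KO, -1.93 in STK19_KO1, -2.10 in STK19_KO2 and -2.36 in WT. Of the WT libraries, those with DMSO at 20 h stood near the 0 h level of 38.8, 35.7 and 36.1 CPM, with a log2 change of -0.13 ± 0.08 (SE).

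OVGP1 (ENSG00000085465, GRCh38 chr1:111414319-111427735, minus strand) was a low gene in unirradiated WT, at 1.53, 1.89 and 1.46 CPM. At 20 h it was at 18.9, 18.5 and 19.0 CPM with ATRi, against 3.20, 2.90 and 3.47 CPM with DMSO in WT. In STK19_KO2 it was at 36.3, 36.5 and 36.9 CPM with ATRi, against 11.3, 10.8 and 11.1 CPM with DMSO, the highest level of this gene. In CSB_KO it was at 16.3, 16.1 and 18.1 CPM with ATRi, against 8.53, 9.92 and 9.001 CPM with DMSO. The DMSO libraries of CSB_KO lay above those of WT, and the ATRi libraries of CSB_KO lay just below those of WT. The log2 change of ATRi over DMSO was 0.87 in CSB_KO, 1.91 in STK19_KO1, 1.73 in STK19_KO2 and 2.54 in WT.

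BTN3A2 (ENSG00000186470, GRCh38 chr6:26365159-26378320, plus strand) was at 3.84, 3.77 and 3.35 CPM with ATRi, against 15.02, 15.05 and 14.9 CPM with DMSO in WT at 20 h. In CSB_KO it was at 2.06, 1.79 and 1.44 CPM with ATRi, against 3.38, 4.39 and 4.39 CPM with DMSO. The DMSO libraries of CSB_KO thus overlapped the ATRi libraries of WT. ATRi over DMSO gave a log2 change of -1.22 in CSB_KO, -1.96 in STK19_KO1, -1.43 in STK19_KO2 and -2.04 in WT. With DMSO alone the 20 h change from 0 h was -2.21 in CSB_KO, -0.99 in STK19_KO1, -1.60 in STK19_KO2 and -0.45 in WT. BTN3A1 and BTN3A3 are close copies of BTN3A2 in the same cluster, so the split of reads among the 3 genes is uncertain.

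B4GAT1 (ENSG00000174684, GRCh38 chr11:66345374-66347629, minus strand) and HPS6 (ENSG00000166189, GRCh38 chr10:102065349-102068036, plus strand), 2 short genes with 2 and 1 exons, ran almost in parallel. B4GAT1 in WT at 20 h was at 25.2, 22.1 and 21.7 CPM with ATRi, against 61.7, 66.6 and 63.9 CPM with DMSO, and HPS6 was at 12.6, 13.5 and 14.2 CPM with ATRi, against 28.96, 33.5 and 30.3 CPM with DMSO. In CSB_KO, B4GAT1 was at 11.8, 11.4 and 13.3 CPM with ATRi, against 23.7, 20.7 and 23.8 CPM with DMSO. HPS6 in CSB_KO was at 6.83, 5.89 and 6.65 CPM with ATRi, against 12.3, 14.1 and 12.49 CPM with DMSO. For both genes the CSB_KO libraries with DMSO overlapped the ATRi libraries of WT, and both arms of CSB_KO lay below the matching arm of WT. The log2 change of ATRi over DMSO was -0.90 in CSB_KO, -1.72 in STK19_KO1, -1.90 in STK19_KO2 and -1.48 in WT for B4GAT1. For HPS6 it was -1.03 in CSB_KO, -2.11 in STK19_KO1, -1.84 in STK19_KO2 and -1.20 in WT.

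C11orf96 (ENSG00000187479, GRCh38 chr11:43942637-43943878, plus strand) has single-exon transcripts in GENCODE 29. In STK19_KO2 at 20 h it was at 56.7, 53.3 and 52.7 CPM with ATRi, against 14.5, 13.9 and 12.8 CPM with DMSO. In WT it was at 25.9, 28.6 and 23.9 CPM with ATRi, against 6.20, 7.44 and 7.38 CPM with DMSO. In CSB_KO it was at 22.4, 25.6 and 26.7 CPM with ATRi, against 15.1, 14.7 and 13.95 CPM with DMSO. The STK19_KO2 libraries with ATRi were the highest of this gene, and the WT libraries with DMSO the lowest at 20 h. ATRi over DMSO gave a log2 change of 0.77 in CSB_KO, 1.78 in STK19_KO1, 1.98 in STK19_KO2 and 1.89 in WT.

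The lines differed in the 20 h contrast in 1 direction: CSB_KO had the smallest log2 change of ATRi over DMSO for all 10 genes, and for 9 when replicate 1 of every group was left out, the exception then being BTN3A2. Over all tested genes, the median size of this log2 change was 0.19 in CSB_KO, 0.38 in STK19_KO1, 0.35 in STK19_KO2 and 0.44 in WT, and over the 10 genes it was 0.89, 1.92, 1.79 and 1.97 in the same order of lines. The changes under DMSO are given beside this smaller gap in CSB_KO. The 20 h DMSO libraries enter both with opposite signs, which ties the gap to the DMSO change. Nothing is therefore read from the 2 standing together. From 0 h to 20 h with DMSO, CSB_KO had the largest change of the 4 lines for RASSF1, RASSF5, METTL7A, OVGP1, BTN3A2, B4GAT1, HPS6 and C11orf96. B4GAT1, for example, changed with DMSO by a log2 of -1.54 in CSB_KO and -0.32 in WT, and with ATRi by -2.44 in CSB_KO and -1.80 in WT. Changes with DMSO were also largest in CSB_KO over all tested genes. Their median size from 0 h to 20 h was 0.78 in CSB_KO, 0.52 in STK19_KO1, 0.58 in STK19_KO2 and 0.30 in WT. With ATRi it was 0.81, 0.69, 0.74 and 0.61 in the same order of lines. For 8 of the 10 genes the change from 0 h spanned less over the lines with ATRi than with DMSO, the exceptions being DHRS2 and METTL7A. Without the low-count filter, or without replicate 2 of every group, the count was 7. These spans are differences between lines of the contrasts that chose the genes, and no test was made of them.

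**Figure D2:**
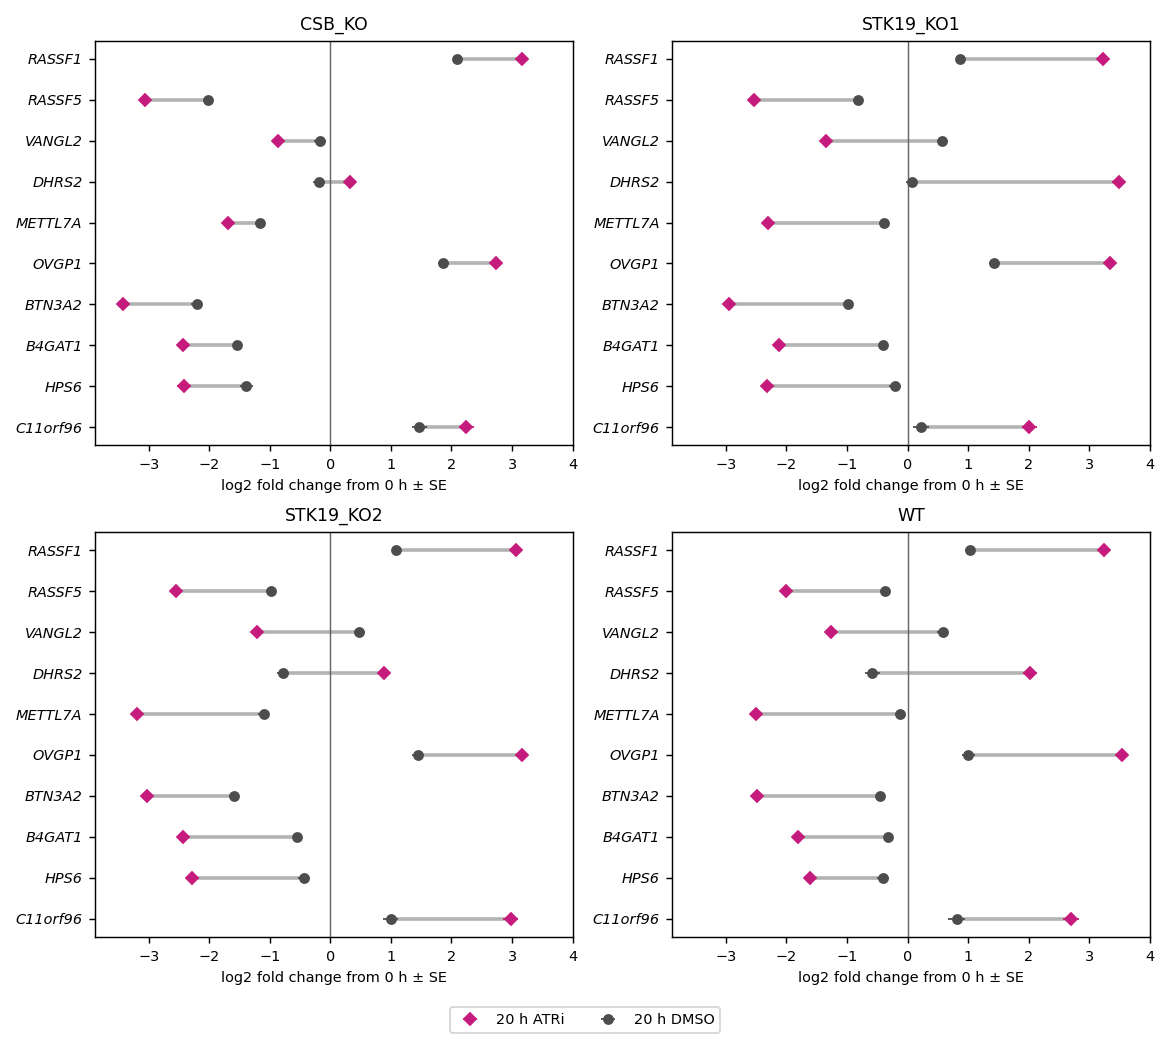
Log2 fold change from 0 h at 20 h in each line, with ATRi (diamonds) and with DMSO (circles), whiskers ± SE from edgeR's fit and grey lines joining the 2 arms of a gene. RASSF1 diamonds sat at 3.17 in CSB_KO, 3.23 in STK19_KO1, 3.07 in STK19_KO2 and 3.24 in WT, and the joining lines were shortest in CSB_KO for all 10 genes.

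The change with ATRi over DMSO had the same sign as the DMSO change from 0 h for 9 of 10 genes in CSB_KO, 9 in STK19_KO1, 8 in STK19_KO2 and 8 in WT. These counts share the 20 h DMSO libraries, which enter both changes with opposite signs. DHRS2 was the gene with opposite signs in CSB_KO, with a log2 change of 0.51 for ATRi over DMSO and -0.19 for DMSO from 0 h. VANGL2 was the gene with opposite signs in STK19_KO1, with -1.92 and 0.58 on the same 2 scales. Both genes had opposite signs in STK19_KO2 and in WT; in WT the 2 values were -1.84 and 0.58 for VANGL2 and 2.60 and -0.58 for DHRS2. RASSF1, RASSF5, METTL7A, OVGP1, BTN3A2, B4GAT1, HPS6 and C11orf96 had equal signs in all 4 lines. Since the shared libraries and the choice of genes bear on these counts, nothing is read from them. These counts were the same with other scalings, without the low-count filter, in DESeq2, with a replicate block and without each replicate number.

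UV alone, measured in libraries that took no part in the choice, moved RASSF1 up and RASSF5 down within 3 h in every line. Here and elsewhere, a rise or fall is one in the share of the scaled library total. The amount of RNA per cell was not measured. RASSF1 in WT stood at 30.3, 38.4 and 39.2 CPM at 3 h, against 17.6, 17.1 and 17.8 CPM at 0 h, and in CSB_KO at 35.9, 38.0 and 38.2 CPM, against 18.0, 17.4 and 15.8 CPM. The log2 change was 1.13 in CSB_KO, 0.99 in STK19_KO1, 1.12 in STK19_KO2 and 1.04 in WT, and the highest adjusted p of edgeR's quasi-likelihood test over the lines was 1.87e-19. RASSF5 in WT stood at 10.3, 10.8 and 10.5 CPM at 3 h, against 27.1, 23.99 and 25.3 CPM at 0 h. Its log2 change was -1.32 in CSB_KO, -1.11 in STK19_KO1, -0.73 in STK19_KO2 and -1.27 in WT, with an adjusted p of at most 1.67e-13 by edgeR. For both genes the 3 h and 0 h libraries did not overlap in any line. Among all tested genes this held for 67.9% in CSB_KO, 63.2% in STK19_KO1, 70.2% in STK19_KO2 and 52.1% in WT.

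Of the 10 genes, edgeR called 6 in CSB_KO at 3 h after UV against 0 h, 9 in STK19_KO1, 7 in STK19_KO2 and 7 in WT. The calls over all tested genes were 61.3% in CSB_KO, 60.6% in STK19_KO1, 57.6% in STK19_KO2 and 62.4% in WT, so most of the tested genes were called after UV. At 4 h with DMSO against 0 h the counts were 6, 8, 6 and 8 in the same order of lines, beside 63.7% in CSB_KO, 57.8% in STK19_KO1, 61.4% in STK19_KO2 and 66.3% in WT of all genes. RASSF1, RASSF5, OVGP1, BTN3A2 and C11orf96 passed the test at both times in all 4 lines. OVGP1 and C11orf96 rose, and BTN3A2 fell, with a log2 change at 4 h of -0.80 in CSB_KO, -0.81 in STK19_KO1, -0.68 in STK19_KO2 and -0.72 in WT. VANGL2 fell in all 4 lines at 3 h, with -0.27 in CSB_KO, -0.52 in STK19_KO1, -0.35 in STK19_KO2 and -0.69 in WT, and in CSB_KO the adjusted p of edgeR was 0.0521 once replicate 2 at 3 h was left out, with a log2 change of -0.24. At 4 h VANGL2 did not pass in STK19_KO2, at -0.16; its calls at 4 h in CSB_KO and STK19_KO1 were lost without CSB_KO replicate 2 at 4 h with DMSO (-0.23), without STK19_KO1 replicate 2 at 0 h or without STK19_KO1 replicate 1 at 4 h with DMSO (between -0.21 and -0.18). HPS6 passed in no line at either time, with log2 changes between -0.21 and 0.14 in the fit of all libraries. With replicate number as a block edgeR called it at 3 h in CSB_KO (-0.21, adjusted p 0.0281) and WT (-0.21, 0.0270) and at 4 h in STK19_KO1 (-0.21, 0.0316). The scaling mattered too. On library totals alone, without scaling factors, edgeR called HPS6 in WT at 3 h (-0.41, adjusted p 0.000409) and 4 h (-0.39, 0.000664). It was then also called in CSB_KO at 3 h (-0.33) and 4 h (-0.32) and in STK19_KO1 at 4 h (-0.24). Of all genes, 57.3% to 64.3% were called in these comparisons.

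METTL7A, DHRS2 and B4GAT1 were called in some lines; differences between lines were tested apart. METTL7A fell in STK19_KO1 and STK19_KO2 at both times, by a log2 change of -0.43 and -0.42 at 4 h, and in WT at 4 h, with -0.38. DHRS2 rose at 3 h in STK19_KO1, with 0.27, and in WT, with 0.29. The call in STK19_KO1 was lost without replicate 2 at 0 h or replicate 3 at 3 h (0.21 to 0.25), and that in WT without replicate 1 or 3 at 0 h or replicate 2 or 3 at 3 h (0.22 to 0.25). B4GAT1 fell in STK19_KO1 at 3 h and 4 h, with -0.17 and -0.27, and in WT at 4 h, with -0.18. The 3 h call of B4GAT1 in STK19_KO1 was lost without replicate 2 at 0 h or replicate 1 or 2 at 3 h (-0.16 to -0.10), and the WT call without replicate 2 or 3 at 0 h or replicate 1 at 4 h with DMSO (-0.16 to -0.12). Without the 5 libraries that lay apart, DHRS2 in STK19_KO1 at 3 h had a log2 change of 0.21 and an adjusted p of 0.0775 by edgeR. On library totals alone, METTL7A (-0.33) and B4GAT1 (-0.31) were also called in WT at 3 h, beside 59.7% of all genes. B4GAT1 was then called in CSB_KO at 3 h (-0.17) and in STK19_KO2 at 3 h (-0.16) and 4 h (-0.15) as well.

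Leaving out the 5 libraries that lay apart changed these counts. At 3 h edgeR then called 7 of the 10 genes in CSB_KO, 8 in STK19_KO1, 8 in STK19_KO2 and 10 in WT, beside 65.9%, 59.6%, 62.2% and 60.4% of all genes in the same fit. At 4 h with DMSO it called 7, 9, 8 and 9, beside 67.7%, 62.6%, 65.5% and 65.1% of all genes. The count was higher than with all libraries in every UV comparison except STK19_KO1 at 3 h, where DHRS2 was lost. In WT at 3 h METTL7A then had a log2 change of -0.25, B4GAT1 of -0.16 and HPS6 of -0.21. With single libraries left out, B4GAT1 (-0.19) and HPS6 (-0.36) were called in WT without replicate 1 at 0 h, and METTL7A (-0.27) without replicate 1 at 3 h. HPS6 in WT at 3 h was also called without replicate 2 (-0.31) or replicate 3 (-0.30) at 3 h. At 4 h with DMSO, HPS6 fell by 0.30 in WT, 0.22 in STK19_KO1 and 0.19 in CSB_KO once the 5 libraries were left out, and in WT its log2 change was -0.34 without replicate 1 at 0 h alone. In CSB_KO at 3 h HPS6 was called without the 5 libraries, at -0.21, and without replicate 2 at 3 h, at -0.30. In STK19_KO2 at 3 h HPS6 was called higher, against its 20 h direction, without replicate 1 of every group, at 0.16. B4GAT1 in STK19_KO2 was called without the 5 libraries at 3 h (-0.16) and 4 h (-0.14), and VANGL2 there at 4 h (-0.19).

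**Figure D3:**
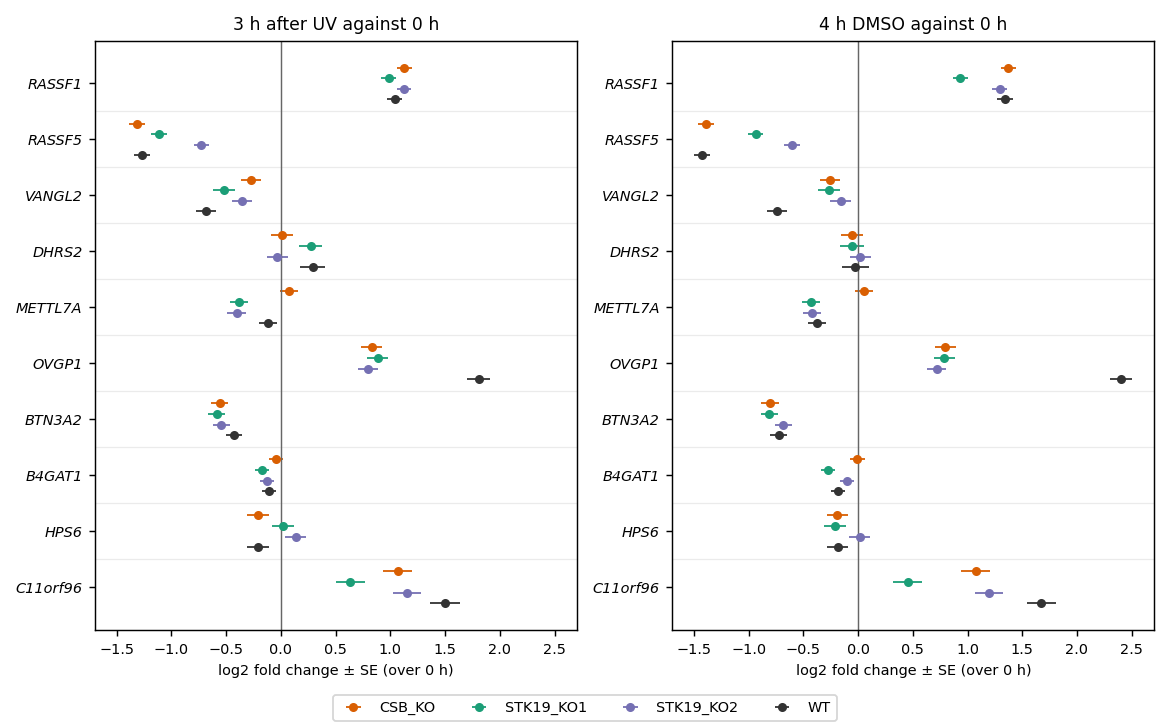
Log2 fold change of the 10 genes over 0 h at 3 h after UV and at 4 h with DMSO, points with whiskers ± SE from edgeR's fit, 1 colour per line. OVGP1 in WT sat at 1.81 and 2.41, away from the 3 edited lines at 0.72 to 0.88 over both times.

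In the fit of all libraries, every called UV change at 3 h or 4 h had the sign of the 20 h difference between ATRi and DMSO in the same line. At 3 h this held for 6 of 6 called genes in CSB_KO, 9 of 9 in STK19_KO1, 7 of 7 in STK19_KO2 and 7 of 7 in WT, and at 4 h with DMSO for 6 of 6, 8 of 8, 6 of 6 and 8 of 8. Among all genes called in both contrasts, the share with the same sign was 63.5%, 57.5%, 59.3% and 64.1% at 3 h and 62.1%, 60.2%, 59.0% and 66.2% at 4 h, in the same order of lines. The libraries of these 2 contrasts do not overlap. The 20 h sign comes from the contrast that chose the genes, and the shares over all genes are not matched to them in size. The same genes also recur over lines and times, so nothing is read from these counts. VANGL2 was lower at 3 h and 4 h, higher at 20 h with DMSO in 3 lines, and lower again with ATRi.

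The UV response of OVGP1 differed between WT and the edited lines. At 4 h with DMSO it was at 4.81, 3.999 and 4.25 CPM in CSB_KO, 5.88, 5.96 and 5.77 CPM in STK19_KO1, 6.86, 6.72 and 6.44 CPM in STK19_KO2 and 8.95, 7.33 and 9.26 CPM in WT. At 0 h it had been at 2.60, 2.27 and 2.83 CPM in CSB_KO, 3.32, 3.001 and 3.78 CPM in STK19_KO1, 3.91, 4.42 and 3.86 CPM in STK19_KO2 and 1.53, 1.89 and 1.46 CPM in WT. WT was thus the lowest line before UV and the highest at 4 h. The log2 change at 4 h was 0.80 in CSB_KO, 0.79 in STK19_KO1, 0.72 in STK19_KO2 and 2.41 in WT. Set against WT, the change differed by -1.61 ± 0.14 (SE) in CSB_KO, with an adjusted p of 2.31e-13, and by -1.65 ± 0.12 in the mean of the STK19 lines, with 4.48e-16, both by edgeR. Without the 5 libraries that lay apart the 2 differences were -1.53 and -1.60. At 3 h they were -0.98 and -0.97, and without the 5 libraries -0.88 and -0.92.

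Such differences of the UV response from WT were called for 2 of the 10 genes in CSB_KO at 3 h, beside 9.78% of all genes, and for 4 in CSB_KO at 4 h, beside 16.4%. In the mean of the STK19 lines 4 were called at 3 h, beside 27.2%, and 5 at 4 h, beside 26.6%. C11orf96 rose less than in WT, by a log2 of -0.60 at 3 h and -0.85 at 4 h in the STK19 lines and -0.60 at 4 h in CSB_KO. The last of these was lost without replicate 1 of WT at 0 h, replicate 2 or 3 of WT at 4 h with DMSO or replicate 2 of CSB_KO at 0 h, at -0.55 to -0.47. RASSF5 fell less than in WT in the STK19 lines, by 0.35 at 3 h and 0.66 at 4 h, with adjusted p of 0.00151 and 3.14e-08 by edgeR.

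VANGL2 also fell less than in WT at 4 h, by 0.49 ± 0.13 (SE) in CSB_KO and 0.53 ± 0.12 in the STK19 lines. Its difference at 3 h in CSB_KO, 0.41, had an adjusted p of 0.0320 by edgeR. That call was lost without any 1 of 6 libraries, at 0.33 to 0.43: replicates 1, 2 and 3 of CSB_KO at 0 h, replicate 3 of CSB_KO at 3 h, replicate 3 of WT at 0 h and replicate 1 of WT at 3 h. It was also lost without the 5 libraries that lay apart, at 0.33 with an adjusted p of 0.0942 by edgeR. METTL7A differed by 0.43 at 4 h in CSB_KO, where it did not pass against 0 h, and by -0.28 at 3 h in the STK19 lines. The 3 h value of METTL7A was lost without replicate 1 of WT at 3 h (-0.12), replicate 2 or 3 of WT at 0 h or replicate 2 of STK19_KO1 at 3 h, and without the 5 libraries that lay apart it was -0.17. Without replicate 1 of WT at 3 h, METTL7A (0.34) and C11orf96 (-0.58) were called at 3 h in CSB_KO minus WT as well, and without the 5 libraries at 0.32 and -0.47. HPS6 in the STK19 lines minus WT at 3 h, 0.29, was called without replicate 1 of WT at 0 h, replicate 2 or 3 of WT at 3 h or replicate 1 of STK19_KO1 at 3 h, at 0.32 to 0.44, without the 5 libraries, at 0.26, and with the replicate block, at 0.29 with an adjusted p of 0.0298 by edgeR. VANGL2 there, 0.25, was called without replicate 2 of WT at 3 h, at 0.32. On library totals alone, HPS6 there was called at 0.44 and VANGL2 at 0.41, beside 23.9% of all genes. B4GAT1 in CSB_KO minus WT at 4 h, 0.18, was called without replicate 1 of WT at 0 h, at 0.27, and without the 5 libraries, at 0.21. Library totals alone gave this call at 0.25, beside 18.6% of all genes.

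RASSF1 rose less in the STK19 lines at 4 h, by -0.23, a call lost without any 1 of 9 libraries at -0.24 to -0.20. These were replicates 1, 2 and 3 of WT at 0 h, replicates 2 and 3 of WT at 4 h with DMSO, replicate 3 of STK19_KO1 at 0 h and at 4 h with DMSO, and replicate 1 of STK19_KO2 at 0 h and at 4 h with DMSO.

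At 4 h the inhibitor had moved few of these genes, and none by more than 0.58 on the log2 scale. By edgeR, 1 of the 10 was called in CSB_KO, 1 in STK19_KO1, 1 in STK19_KO2 and 4 in WT, beside 2.97% in CSB_KO, 0.905% in STK19_KO1, 0.22% in STK19_KO2 and 2.66% in WT of all genes. RASSF1 rose in 3 lines: it was at 86.2, 88.9 and 85.2 CPM with ATRi, against 65.2, 65.2 and 61.6 CPM with DMSO, in STK19_KO1, and the groups did not overlap. Its log2 change was 0.10 in CSB_KO, 0.44 in STK19_KO1, 0.35 in STK19_KO2 and 0.25 in WT, with adjusted p by edgeR of 9.50e-06 in STK19_KO1, 0.00253 in STK19_KO2, 0.0246 in WT and 0.575 in CSB_KO. The call in STK19_KO2 was lost without replicate 1 with DMSO (0.28) or replicate 3 with ATRi (0.32). OVGP1 moved in opposite directions, at 6.93, 6.37 and 6.49 CPM with ATRi, against 4.81, 3.999 and 4.25 CPM with DMSO, in CSB_KO, and at 6.60, 7.28 and 6.32 CPM with ATRi, against 8.95, 7.33 and 9.26 CPM with DMSO, in WT. The groups did not overlap in either line. Among all tested genes, ATRi and DMSO libraries at 4 h did not overlap for 27.3% in CSB_KO, 14.2% in STK19_KO1 and 17.9% in WT. OVGP1 rose by a log2 of 0.58 ± 0.09 (SE) in CSB_KO, with an adjusted p of 1.37e-05, and fell by 0.34 ± 0.09 in WT, with 0.0176, both by edgeR.

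In WT the 4 calls were RASSF1, RASSF5, DHRS2 and OVGP1, and each of these calls was lost in edgeR when 1 of several libraries was left out. RASSF5 was at 11.5, 11.7 and 10.8 CPM with ATRi, against 10.3, 9.42 and 8.74 CPM with DMSO, a log2 change of 0.26 against its direction at 20 h. DHRS2 was at 3.09, 3.64 and 3.11 CPM with ATRi, against 2.503, 2.71 and 2.19 CPM with DMSO, a log2 change of 0.44. The RASSF1 call was lost without replicate 1 or 3 with DMSO or replicate 1 or 3 with ATRi, at 0.20 to 0.26. The RASSF5 call was lost without replicate 2 or 3 with DMSO or replicate 1 or 2 with ATRi, at 0.20 to 0.25. The DHRS2 call was lost without replicate 3 with DMSO or replicate 2 with ATRi, at 0.34 to 0.35, and the OVGP1 call without replicate 1 or 3 with DMSO or replicate 1 or 3 with ATRi, at -0.32 to -0.27. Over the lines there were 7 calls at 4 h, 5 in the 20 h direction and 2 against it, RASSF5 and OVGP1 in WT. Of the 6 genes that stood lower at 20 h, VANGL2, METTL7A, BTN3A2, B4GAT1 and HPS6 gave no call at 4 h in edgeR's fit of all libraries, with log2 changes between -0.27 and 0.12. METTL7A in CSB_KO was called lower without the 5 libraries that lay apart (-0.27), without replicate 1 of every group (-0.20) and by DESeq2 (-0.28).

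**Figure D4:**
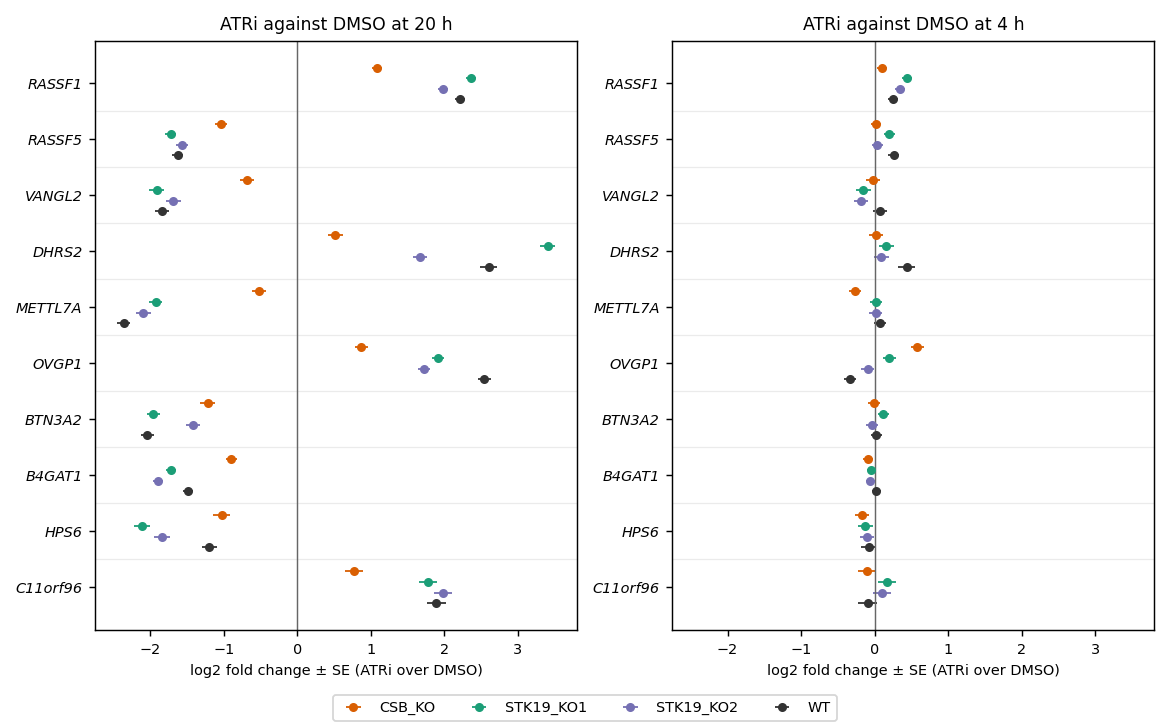
Log2 fold change of ATRi over DMSO for the 10 genes at 20 h (left) and at 4 h (right), on the same scale, points with whiskers ± SE from edgeR's fit, 1 colour per line. At 20 h every point lies away from 0 and CSB_KO is nearest to it for each gene, and at 4 h OVGP1 sat at 0.58 in CSB_KO and -0.34 in WT.

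Tested as a difference between lines, the 4 h response of OVGP1 was 0.92 ± 0.13 (SE) higher on the log2 scale in CSB_KO than in WT, with an adjusted p of 8.89e-07 by edgeR and 0.87 without the 5 libraries that lay apart. No other of the 10 genes was called in that comparison with all libraries, beside 3.2% of all genes. METTL7A stood next, with a log2 difference of -0.35 and an adjusted p of 0.0944 by edgeR; without replicate 1 of WT at 4 h with DMSO, or without the 5 libraries, it was called at -0.43. In CSB_KO itself METTL7A was at 17.2, 17.5 and 18.5 CPM with ATRi, against 22.6, 20.6 and 21.0 CPM with DMSO at 4 h, a log2 change of -0.27 with an adjusted p of 0.0613 by edgeR and 0.0446 by DESeq2. Without the 5 libraries edgeR called METTL7A in CSB_KO at -0.27, with an adjusted p of 0.00133. In the mean of the STK19 lines minus WT edgeR called 0 of the 10 genes, with 3 at an unadjusted p under 0.05 and 0 called by DESeq2, beside 0.00646% of all genes by edgeR.

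The lines already differed in these genes at 0 h. Against WT, edgeR called 6 of the 10 in CSB_KO, 7 in STK19_KO1 and 9 in STK19_KO2, beside 34.8%, 48.7% and 47.3% of all genes. DHRS2, at 8.07, 7.52 and 8.89 CPM in CSB_KO, 6.08, 5.87 and 6.29 CPM in STK19_KO1, 8.49, 7.72 and 7.79 CPM in STK19_KO2 and 2.299, 2.81 and 2.397 CPM in WT, was higher in the 3 edited lines, without overlap. Its log2 difference from WT was 1.70 in CSB_KO, 1.29 in STK19_KO1 and 1.68 in STK19_KO2. Among all tested genes, libraries did not overlap with those of WT for 45.3%, 55.2% and 54.9%, in the same order of lines. OVGP1 and C11orf96, which also stood higher with ATRi at 20 h, were higher in all 3 edited lines too, by 0.65, 1.08 and 1.33 for OVGP1 and by 0.39, 0.91 and 0.78 for C11orf96. METTL7A was lower in all 3, at 17.0, 17.5 and 17.8 CPM in STK19_KO2 and 38.8, 35.7 and 36.1 CPM in WT, a log2 difference of -1.08. BTN3A2 did not pass in any line with all libraries, with -0.11, 0.17 and -0.06, and in STK19_KO1 it was called at 0.25 without replicate 1 of WT, at 0.23 without the 5 libraries and at 0.17 with the replicate block.

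RASSF1 differed from WT in the STK19 clones and not by the test in CSB_KO, with -0.03 in CSB_KO, 0.93 in STK19_KO1 and 0.26 in STK19_KO2. RASSF5 and VANGL2 were lower in STK19_KO1 and STK19_KO2, at -0.36 and -0.82 for RASSF5 and -0.74 and -0.49 for VANGL2. HPS6 in WT at 0 h was at 31.6, 46.1 and 45.3 CPM, of which the first, replicate 1, is a library that lay apart. Its log2 difference from WT was -0.27 in CSB_KO and -0.27 in STK19_KO2, and without the 5 libraries that lay apart it was -0.42 in both. In STK19_KO1, -0.22 was not called with all libraries. Calls were made at -0.37 without replicate 1 of WT, at -0.39 without the 5 libraries, at -0.21 with the replicate block and at -0.24 by DESeq2. Library totals alone gave a call there at -0.29. The HPS6 calls were lost without replicate 2 or 3 of WT, replicate 2 or 3 of CSB_KO or replicate 1 of STK19_KO2 (-0.27 to -0.18). The call of B4GAT1 in STK19_KO2, -0.19, was lost without replicate 2 or 3 of WT or replicate 2 of STK19_KO2 (-0.16 to -0.13), and that of C11orf96 in CSB_KO without replicate 1 or 2 of WT or replicate 2 of CSB_KO (0.29 to 0.36).

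Per kilobase of exon, B4GAT1 was the most abundant of the 10 genes in WT at 0 h, at 38.6 CPM per kilobase. HPS6 followed with 15.5, METTL7A with 9.02, RASSF1 with 4.75, RASSF5 with 3.65, VANGL2 with 3.23, BTN3A2 with 2.91 and C11orf96 with 2.16 CPM per kilobase. OVGP1 with 0.633 and DHRS2 with 0.331 CPM per kilobase came last, and both were among the 4 genes that stood higher with ATRi at 20 h. Exon lengths are unions over transcripts, so the levels are relative to the annotation and not to the isoform in use. The 10 genes lie on 7 chromosomes (1, 3, 6, 10, 11, 12 and 14), with 3 of them on chromosome 1 and 2 on chromosome 11.

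The genes next to them on the chromosome went both ways at 20 h, given here with no test. BRMS1, which lies 0.248 kb from B4GAT1, had a log2 change of ATRi over DMSO of -0.02 in CSB_KO, 0.28 in STK19_KO1, 0.30 in STK19_KO2 and 0.55 in WT, while B4GAT1 was lower in all 4. TUSC2 beside RASSF1 had -0.28 in CSB_KO, -0.17 in STK19_KO1, -0.32 in STK19_KO2 and -0.02 in WT. EIF2D, which overlaps RASSF5, had 0.18 in CSB_KO, 0.52 in STK19_KO1, 0.64 in STK19_KO2 and 0.06 in WT, and LDB1 beside HPS6 had -0.34 in CSB_KO, -0.59 in STK19_KO1, -0.49 in STK19_KO2 and -0.30 in WT. BTN2A2, a butyrophilin 4.775 kb from BTN3A2, had -0.37 in CSB_KO, -1.13 in STK19_KO1, -0.98 in STK19_KO2 and -0.72 in WT, in the direction of BTN3A2. NHLH1, 27.717 kb from VANGL2, had 0.57 in CSB_KO, 1.66 in STK19_KO1, 1.29 in STK19_KO2 and 1.35 in WT, against the direction of VANGL2. ALKBH3, 22.362 kb from C11orf96, had 0.52 in CSB_KO, 0.78 in STK19_KO1, 0.96 in STK19_KO2 and 0.92 in WT, in its direction. IKBKE, 10.641 kb from RASSF5, had -0.32 in CSB_KO, -1.48 in STK19_KO1, -0.78 in STK19_KO2 and -1.46 in WT, in the direction of RASSF5. Its level was low, at 0.42 CPM with ATRi and 1.18 CPM with DMSO in WT at 20 h. DYRK3, on the other side of RASSF5, had -0.65, -0.72, -0.56 and -0.38 in the same order of lines. ZMYND10, 0.129 kb from RASSF1, had 0.50, 0.14, 0.14 and -0.59, also at a low level, 1.04 CPM with ATRi in WT. Values of the remaining neighbours are not listed here.

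Over the 24 group means, the profiles of B4GAT1 and HPS6 were the most alike pair among the 10 genes, with a Pearson r of 0.985 of log2 CPM. RASSF5 ran against C11orf96 (r = -0.949) and OVGP1 (r = -0.946), and OVGP1 ran with C11orf96 (r = 0.934). RASSF1 and RASSF5 ran against each other (r = -0.877). The groups share lines and times, and the 10 genes were chosen for a shared contrast, so these values describe likeness over 24 groups and carry no test. Of all tested genes with a symbol and a mean log2 CPM of at least 1, the nearest profiles were ENTR1 (0.960) and BAG1 (0.950) for RASSF1, PPP1R26 (0.952) and ZNF362 (0.950) for RASSF5, DDR1 (0.896) and NOTCH3 (0.881) for VANGL2, FARSA (0.884) and PVR (0.848) for DHRS2, and SMO (0.962) and TTYH3 (0.944) for METTL7A. For OVGP1 they were TUFT1 (0.956) and BAG1 (0.953), for BTN3A2 CROT (0.977) and RAB40B (0.975), for B4GAT1 HPS6 (0.985) and TMEM19 (0.981), for HPS6 B4GAT1 (0.985) and C19orf12 (0.971), and for C11orf96 DYRK4 (0.948) and UTP23 (0.945), all as r over the 24 groups.

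**Figure D5:**
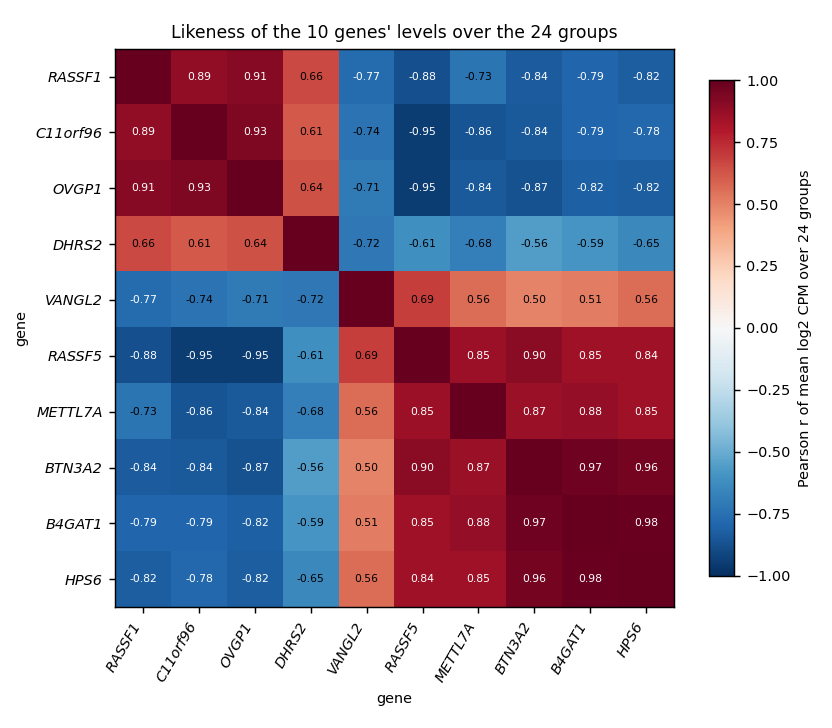
Pearson r between the 10 genes' log2 CPM over the 24 group means. B4GAT1 with HPS6 reached 0.985, and RASSF5 with C11orf96 -0.949; colours run from -1 to 1.

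The partners of these genes in their pathways were taken from written lists, with the 10 genes themselves left out. At 4 h with DMSO after UV, 10 of 15 other RASSF proteins and Hippo kinases and adaptors were called lower by edgeR in CSB_KO, 9 in STK19_KO1, 10 in STK19_KO2 and 11 in WT, and 2, 0, 0 and 1 were called higher. Their median log2 change was -0.79, -0.60, -0.47 and -0.84, beside medians of 0.06, 0.02, 0.05 and 0.06 over all genes. Of all tested genes, 30.2% in CSB_KO, 30% in STK19_KO1, 29.8% in STK19_KO2 and 31.3% in WT were called lower at 4 h with DMSO, and 33.6% in CSB_KO, 27.9% in STK19_KO1, 31.6% in STK19_KO2 and 35% in WT higher. RASSF5 fell with them and RASSF1 rose. With ATRi over DMSO at 20 h the list had 6, 9, 10 and 11 genes called lower and 0, 1, 1 and 1 called higher, with medians of -0.06, -0.25, -0.27 and -0.59, beside 0.01, 0.02, 0.03 and -0.03 over all genes. Of all tested genes, 17.5% in CSB_KO, 30.1% in STK19_KO1, 27.7% in STK19_KO2 and 33.7% in WT were called lower there, and 14.1% in CSB_KO, 31.5% in STK19_KO1, 30.5% in STK19_KO2 and 30.2% in WT higher. With ATRi at 4 h edgeR called 0 of the 15 in any line.
Of 15 other planar cell polarity genes, 7 were called lower and 5 higher in CSB_KO at 4 h with DMSO, 7 and 1 in STK19_KO1, 6 and 2 in STK19_KO2, and 8 and 4 in WT, with median log2 changes of 0.05, -0.22, -0.17 and -0.21. With ATRi at 20 h, 5, 8, 9 and 8 were lower and 2, 2, 1 and 3 higher, in the same order of lines, with medians of -0.09, -0.22, -0.41 and -0.35. At 4 h edgeR called 0 of these genes with ATRi.
Of 8 other butyrophilins, 6 were tested, and with ATRi at 20 h 2, 3, 2 and 4 were called lower and 0, 2, 3 and 1 higher, with medians of -0.14, -0.28, -0.00 and -0.58. At 4 h with ATRi the called butyrophilins rose: BTN2A1, which acts with the BTN3A proteins in activating gamma-delta T cells, by 0.24 in STK19_KO1, 0.17 in STK19_KO2 and 0.24 in WT, BTN2A2 by 0.28 in STK19_KO1 and 0.42 in WT, and BTNL9 by 0.23 in CSB_KO. BTN3A2 itself was between -0.04 and 0.12 there, without a call. Of all tested genes, edgeR called 2.97% in CSB_KO, 0.905% in STK19_KO1, 0.22% in STK19_KO2 and 2.66% in WT with ATRi at 4 h. The call of BTN2A2 in STK19_KO1 had an adjusted p of 0.0309 by edgeR, in a comparison with a library that lay apart. Calls of list genes, here and below, were not followed with libraries left out.

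The other lists went both ways with ATRi at 20 h. Of 13 other genes of matriglycan synthesis on dystroglycan, the pathway of B4GAT1, 3, 6, 5 and 7 were called lower and 3, 5, 4 and 4 higher in CSB_KO, STK19_KO1, STK19_KO2 and WT, with median log2 changes of 0.08, -0.15, 0.06 and -0.16. DAG1, which encodes dystroglycan, fell with ATRi at 4 h in CSB_KO, with a log2 change of -0.28. Of 16 other subunits of the BLOC and AP-3 sorting complexes, among which HPS6 belongs, 2, 6, 4 and 7 were lower and 2, 3, 5 and 4 higher at 20 h, with medians of -0.04, -0.05, 0.05 and 0.01. BLOC1S3 rose at 4 h in WT by 0.39. Of 11 other short-chain dehydrogenases of the DHRS group, 10 were tested, and 3, 4, 5 and 5 were lower and 1, 3, 3 and 3 higher with ATRi at 20 h, with medians of -0.10, -0.18, -0.27 and -0.33. At 4 h after UV with DMSO, 6, 5, 5 and 4 of them were called higher and 1, 3, 2 and 1 lower, with medians of 0.36, 0.22, 0.22 and 0.19, while DHRS2 passed in no line.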

How the data were processed

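Polyadenylated RNA of 72 libraries was sequenced after extraction with Qiagen RNeasy and preparation with NEBNext Ultra II Directional reagents, per the labels' protocols. Per the submitters' processing notes, the authors used STAR, RSEM (versions not given) and GRCh38, and the table they deposited holds unnormalised expected counts per gene, all whole numbers. Coverage tracks, for which the notes name deepTools 3.5.1, were not used.

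Genes were kept by filterByExpr of edgeR 4.0.16 in R 4.3.3 (minimum count 10, minimum total 15), which left 15470 of 19324 genes (572 of the table had no symbol). Every library entered a single quasi-likelihood fit with TMM factors of 0.857 to 1.125, with a coefficient for each of the 24 groups and no covariate. Calls required an adjusted p (Benjamini-Hochberg, across the tested genes) below 0.05. CPM were computed with edgeR from these counts and are relative to the scaled library total. The scripts were tested on simulated data.

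The 10 genes and the pathway lists were chosen with earlier results of these data known. All 10 genes are named in every comparison. Other genes were named if they were the 2 nearest profiles of a gene, its chromosomal neighbours, the list genes with the largest calls for ATRi at 4 h (up to 2 in each direction), ERCC6 and STK19, or the next 2 genes in each direction at 20 h. BTN3A1 and BTN3A3 are named outside this rule, for their likeness to BTN3A2.

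Alternatives were DESeq2 1.42.0, other scalings, no low-count filter, a replicate block, and leaving out a replicate number, a single library or the 5 libraries that lay apart. Fits without a single library kept the dispersion trend, gene set and scaling of the full fit. Exon lengths and overlaps came from GENCODE 29 and promoters from RefSeq (GRCh38.p14). Results on 1 further promoter are not reported here. Among 72 pairs of replicates the lowest chi-square per gene was 3.70, so no libraries were counted as 1 sample.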

Additional observations from a re-analysis of the deposited data

Results flagged for a closer look

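Differences between lines in the same contrast were called for 6 of the 10 genes. Set against WT, 2 genes in CSB_KO and 4 in the STK19 lines were called at 3 h, beside 9.78% and 27.2% of all genes. At 4 h with DMSO the counts were 4 and 5, beside 16.4% and 26.6%. For ATRi at 4 h they were 1 and 0, beside 3.2% and 0.00646%. OVGP1 had most of these differences: by edgeR its UV response set against WT was -0.98 (CSB_KO) and -0.97 (mean of the STK19 lines) at 3 h and -1.61 and -1.65 at 4 h with DMSO, on the log2 scale. Its response to ATRi at 4 h was 0.92 higher in CSB_KO than in WT. There every ATRi library of CSB_KO (log2 change 0.58) and of STK19_KO1 (0.20) lay above the DMSO libraries and every ATRi library of WT lay below them (-0.34). STK19_KO2 moved by -0.09. For STK19_KO1 and WT alone the opposite movement was not tested as a difference. In the mean of the STK19 lines minus WT, OVGP1 was not called.

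C11orf96 differed from WT in its UV response by -0.60 in the STK19 lines at 3 h, by -0.60 in CSB_KO at 4 h and by -0.85 in the STK19 lines at 4 h. RASSF5 differed by 0.35 at 3 h and 0.66 at 4 h in the STK19 lines, and RASSF1 by -0.23 there at 4 h. VANGL2 differed by 0.41 at 3 h and 0.49 at 4 h in CSB_KO and by 0.53 at 4 h in the STK19 lines. METTL7A differed by -0.28 at 3 h in the STK19 lines and by 0.43 at 4 h in CSB_KO.

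At 20 h with DMSO, all libraries of VANGL2 lay below 0 h in CSB_KO (-0.17) and above 0 h in STK19_KO1 (0.58), STK19_KO2 (0.48) and WT (0.58). The difference between the lines was not tested. Among all tested genes, the 20 h DMSO and 0 h libraries did not overlap for 80.8% in CSB_KO, 75.5% in STK19_KO1, 79.5% in STK19_KO2 and 59.1% in WT. The single libraries that decide some of these calls are named in the report.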

How the results depend on the processing

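Of 102 called results of the 10 genes outside 20 h, 82 were kept when any 1 library was left out and 20 were lost, 26 were lost when 1 replicate number was left out, and 8 under another setting; no called result changed sign. With DESeq2, 2 genes were called for ATRi at 4 h in CSB_KO (3.87% of all genes), against 1 by edgeR (2.97%), and 2 when the 5 libraries that lay apart were left out (6.96%). For ATRi at 4 h in CSB_KO minus WT, library totals without scaling factors (3.08% of all genes) and leaving out the 5 libraries (7.57%) each gave 2 genes, against 1 (3.2%). Without the low-count filter 1 gene differed between CSB_KO and WT at 3 h (9.05% of all genes), against 2 (9.78%). Leaving out a replicate or a library gave, for CSB_KO minus WT, 1 to 3 genes at 3 h (3.18% to 14.9% of all genes) and 1 to 5 at 4 h with DMSO (7.18% to 18.5%), and for the STK19 lines minus WT 2 to 6 at 3 h (11.6% to 30.8%). For ATRi at 4 h it gave 1 to 2 in CSB_KO (0.498% to 4.54%), 1 to 2 in CSB_KO minus WT (0.388% to 3.37%), 0 to 1 in STK19_KO2 (0.0647% to 0.372%) and 0 to 3 in WT (0.252% to 5.46%), where all libraries gave 4. Library totals alone moved the median of all genes in CSB_KO by -0.31 for DMSO and -0.26 for ATRi at 20 h against 0 h and in STK19_KO2 by -0.13 for ATRi, and under it no called value and no 20 h value of the 10 genes changed sign. Under this setting edgeR also gained calls of METTL7A, VANGL2, B4GAT1 and HPS6, given in the report. Replicate numbers were not taken as pairs, since not every same-numbered pair had a correlation above 0.1: of 45 such pairs over the comparisons, 3 had deviations from the group means correlated above 0.1 (range -0.065 to 0.256), while 46 of 72 libraries correlated best with their own number, a hint from the data that the design does not give. With the replicate block 8 genes were called at 3 h in WT, against 7 (63.8% and 62.4% of all genes), and 9 in STK19_KO1 against WT at 0 h, against 7 (50.8% and 48.7%); HPS6 and BTN3A2 gave all calls that the block gained, and it lost none. Clone and knockout cannot be told apart in CSB_KO, and WT was the only unedited line.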
